A study of Mus musculus with 10 samples.

Results

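Ribosome biogenesis is described here through 39 genes that encode nucleolar proteins and ribosome assembly factors, measured in sorted subsets of a mouse acute promyelocytic leukaemia. The members were taken by symbol: a probe set counted when the platform annotation gave it exactly 1 symbol and that symbol was a member. Each gene was represented by its probe set with the highest mean log2 signal over the 10 arrays, and 81 of the members' 84 probe sets passed the filter on dim signal. All 39 members passed that filter and belong to the 14581 genes tested.

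The leukaemia arose in PML-RARα transgenic mice of the FVB N/J strain, aged 8 to 10 weeks. What promoter drives the transgene, the sources used here do not say. Leukaemic bone marrow cells carrying GFP from a retrovirus were expanded in syngeneic recipients, and flow cytometry divided the GFP-positive cells into an SC, a PD and a TD subset, names that the labels do not spell out. UNSC, UNPD and UNTD came from untreated recipients. RAPD and RATD are the PD and TD subsets after all-trans retinoic acid (ATRA) at 10 mg/kg, for 5 days by the treatment protocol and 3 to 5 days by the source names. All 5 groups share the transgene, the GFP label and the transplantation, so none is a normal marrow control. Each group has 2 arrays from biological replicates whose animals are not named.

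Ribosome assembly begins in the nucleolus, where RNA polymerase I transcribes the long precursor of the ribosomal RNAs. Box C/D and box H/ACA small nucleolar ribonucleoproteins (snoRNPs) modify that precursor, and large sets of assembly factors, helicases, GTPases and methyltransferases fold and cut it into the small and the large subunit. In blood cells the process is most active in dividing progenitors and is reduced as granulocytes mature, and many of its genes are known targets of the transcription factor Myc. By role the members are 3 box C/D proteins, 3 box H/ACA proteins, 3 scaffold and chaperone proteins, 3 factors of RNA polymerase I and ribosomal DNA, 13 small subunit factors and 14 large subunit factors.

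A pair of short promoter motifs was searched, since the members are often described as co-regulated. These were CACGTG, the E-box that Myc and Max bind, which is its own reverse complement, and a core bound by ETS factors, CCGGAAG, counted also where it reads CTTCCGG on the other strand. Promoter windows of 250 bases before to 50 bases after the transcription start came from RefSeq on GRCm38.p6, and 35 of the 39 members had one. The ETS core was found in 13 of 35 members (37.1%) and in 17.5% of the 11666 other tested genes with a window. Of all 27025 genes with a window, 9.93% held it. The E-box was found in 7 of 35 members (20.0%), in 10.9% of other tested genes and in 8.09% of all genes with a window. A match describes letters in a window and is not evidence of binding. The 5 windows below, the 100 bases before the start, show where the motifs lie (capitals) in members that the comparisons below turn on and in Nop2, which holds both.
Gar1: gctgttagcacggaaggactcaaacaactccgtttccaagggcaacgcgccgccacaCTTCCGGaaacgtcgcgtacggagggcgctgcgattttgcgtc
Nhp2: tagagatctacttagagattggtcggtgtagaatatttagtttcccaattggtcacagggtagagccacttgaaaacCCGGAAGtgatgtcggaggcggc
Heatr1: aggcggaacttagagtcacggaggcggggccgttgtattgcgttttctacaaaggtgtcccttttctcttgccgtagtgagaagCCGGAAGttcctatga
Nolc1: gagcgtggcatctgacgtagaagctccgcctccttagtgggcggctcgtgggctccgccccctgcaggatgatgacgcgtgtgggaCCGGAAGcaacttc
Nop2: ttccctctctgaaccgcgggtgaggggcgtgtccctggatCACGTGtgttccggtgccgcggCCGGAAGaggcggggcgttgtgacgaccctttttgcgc
The ETS core starts 43 bases before the start of Gar1 (chr3:129831397-129831496, minus strand, where it reads CTTCCGG) and 23 bases before that of Nhp2 (chr11:51619673-51619772, plus strand), both RNA pseudouridylation factors. It starts 16 bases before the start of Heatr1 (chr13:12395275-12395374, plus strand), a small subunit processome factor, and 14 bases before that of Nolc1 (chr19:46075747-46075846, plus strand), a chaperone of snoRNPs. In Nop2 (chr6:125131783-125131882, plus strand), a methyltransferase of large subunit RNA, the E-box starts 60 bases and the ETS core 38 bases before the start. Among members called between UNPD and UNSC, the ETS core was present in 2 of the 3 higher members with a window and in 3 of the 11 lower members. The E-box was present in 0 of 3 and 3 of 11 of them, so few windows that no difference can be read.

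Of 6 promyelocyte genes, 5 or 6 were above the dim-signal level (the 40th percentile of an array's log2 signal) on every array. The 2 measured of 6 listed erythroid genes summed to a linear signal of 32 to 215. Passing that level does not identify a cell type. It was also passed by 8 of 8 mature neutrophil genes in every group but UNSC, and by 8 or 9 of 9 monocyte and macrophage genes in UNTD and RATD. The members were bright genes on these arrays, with mean log2 signals from 7.77 for Noc3l to 14.06 for Dkc1, against dim-signal levels of 4.81 to 5.12. The arrays differ in ways the groups do not fully explain. The deposited scaling held the trimmed mean signal between 496.3 and 497, but the 75th percentile of log2 signal was 8.28 and 8.35 on the UNPD arrays, 8.41 and 8.60 on the RAPD arrays and 8.68 to 8.78 on the other arrays. Over the 6329 bright genes the SD of the difference between replicates was 0.158 in UNSC, 0.503 in RAPD and 0.467 in RATD. Among the members, 37 of 39 were lower on RATD replicate 2 than on RATD replicate 1, by a median of 0.61, while 50.9% of all genes were lower. In RAPD the largest replicate gap of a member was 2.82, for Noc3l. The p-values measure only the spread between these arrays.

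**Figure D1:**
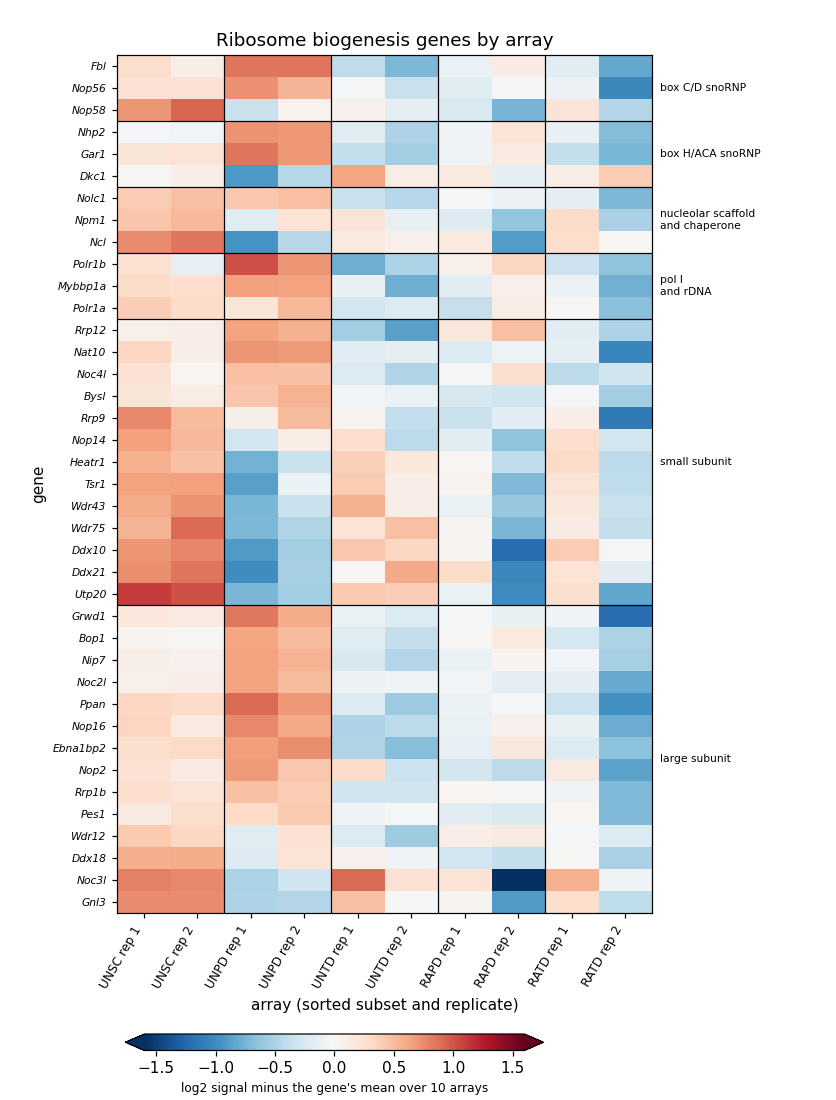
Heat map of the 39 members (rows, grouped by role) on the 10 arrays (columns, by group and replicate), with colour giving log2 signal minus the gene's mean over the arrays. UNPD has the highest group mean for 22 members and the lowest for 10, UNTD lies mostly below UNSC, and RATD replicate 2 is lower than RATD replicate 1 in 37 of 39 rows.

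Over the 5 groups, 30 of the 39 members differed by the moderated F test of limma at an adjusted p under 0.05, beside 40.1% of all genes tested. The group mean was highest in UNPD for 22 members, in UNSC for 16 and in UNTD for Dkc1 alone. It was lowest in RATD for 16 members, in UNPD for 10, in UNTD for 8 and in RAPD for 5. UNPD thus holds the highest mean of some members and the lowest of others, which is a description of means and carries no test.

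The PD subset was compared with the SC subset to see how the members differ between untreated leukaemia subsets. Of the 39 members, 5 (12.8%) were higher and 11 (28.2%) lower in UNPD at an adjusted p under 0.05 (limma, Benjamini-Hochberg over all genes), and 23 were not called. All genes gave 10.6% higher and 15.2% lower, so the share of higher members lies near that of all genes. The median member difference was 0.16 on the log2 scale against 0.20 for all genes, with 22 members above 0 and 17 below, from -1.71 to 0.81. Of the 11 lower members, 7 were small subunit factors, whose median difference was -1.08, while the 14 large subunit factors had a median of 0.40 with 1 call in each direction. This contrast of roles was not tested, and other genes of the same roles, outside the members, had medians of -0.19 (39 small subunit genes, 6 higher and 12 lower) and -0.10 (44 large subunit genes, 4 higher and 9 lower).

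The lower members included the main nucleolar RNA-binding protein, both DEAD-box helicases of small subunit assembly and the processome scaffolds. Ncl (nucleolin), an RNA-binding protein of the nucleolus that acts on polymerase I transcription and early processing, had log2 signals of 13.63 and 13.74 in UNSC and 11.92 and 12.44 in UNPD. Its difference was -1.50 ± 0.28 (SE, adjusted p = 0.0032), and the other 4 probe sets of Ncl gave -2.41, -2.37, -0.75 and, on a dim probe set with mean 4.65, 0.09. Utp20, a scaffold of the small subunit processome, had 10.07 and 9.97 in UNSC and 8.22 and 8.40 in UNPD, a difference of -1.71 ± 0.35 (adjusted p = 0.0049). Both UNPD arrays lay far below both UNSC arrays for both genes.

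The DEAD-box helicases Ddx21, which links polymerase I transcription to processing, and Ddx10 were also lower, by an amount that depends on the probe set. Ddx21 had 10.88 and 10.99 in UNSC against 9.13 and 9.60 in UNPD, a difference of -1.57 ± 0.37 (adjusted p = 0.0089). Ddx10 had 10.67 and 10.74 against 9.06 and 9.41, a difference of -1.47 ± 0.33 (adjusted p = 0.0071). The second probe set gave -0.76 for Ddx21 and -2.16 for Ddx10. The processome proteins Wdr75, Wdr43 and Heatr1 fell by 1.32, 1.20 and 1.08 on the log2 scale. Gnl3 (nucleostemin), a nucleolar GTPase of proliferating cells, had 11.84 on both UNSC arrays and 10.58 and 10.61 in UNPD, a difference of -1.24 ± 0.30 (adjusted p = 0.011). Tsr1 and Nop58 completed the small subunit and box C/D calls, with differences of -1.14 ± 0.31 and -0.96 ± 0.25. Tsr1 had the largest replicate gap of a member within UNPD, 0.76.

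Dkc1 (dyskerin), the pseudouridine synthase of box H/ACA snoRNPs and of telomerase, was called lower. Its log2 signals were 14.07 and 14.16 in UNSC and 13.14 and 13.61 in UNPD, a difference of -0.74 ± 0.21 (adjusted p = 0.025). Its other 2 probe sets gave -0.08 and -0.68, so the size of the difference depends on the probe set. The other members of the same particle, Nhp2 and Gar1, moved the opposite way. Nhp2 had 13.62 and 13.60 in UNSC and 14.36 and 14.34 in UNPD, a difference of 0.74 ± 0.20 (adjusted p = 0.017). Gar1 had 11.71 and 11.74 against 12.38 and 12.21, a difference of 0.57 ± 0.17 (adjusted p = 0.031). The 3 box H/ACA members were thus called in both directions within 1 comparison.

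The box C/D particle was split as well. Fbl (fibrillarin), the ribose methyltransferase of box C/D snoRNPs, had 13.39 and 13.22 in UNSC and 13.97 and 13.96 in UNPD, a difference of 0.66 ± 0.21 (adjusted p = 0.038). Its second probe set gave 0.84. Its partner Nop58 had 11.74 and 11.97 in UNSC and 10.69 and 11.10 in UNPD and was called lower, while Nop56 was not called at 0.41 ± 0.25 (adjusted p = 0.27). Fibrillarin and Nop58 belong to the same particle, and their arrays did not overlap between the subsets in either case.

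Polr1b, one of the subunits that form the catalytic centre of RNA polymerase I, was the most strongly raised member. It had 8.95 and 8.58 in UNSC and 9.73 and 9.41 in UNPD, a difference of 0.81 ± 0.24 (adjusted p = 0.03). Its catalytic partner Polr1a was not called at 0.01 ± 0.28 (adjusted p = 0.98), with 8.79 and 8.69 in UNSC inside the range of 8.59 and 8.92 in UNPD. The other kept probe sets of Polr1a, with means of 7.68 and 6.85, gave 0.32 and -0.68, so its value depends on the probe set. Bop1, which acts with Pes1 and Wdr12 in large subunit assembly, had 10.92 and 10.89 in UNSC and 11.50 and 11.38 in UNPD, a difference of 0.54 ± 0.17 (adjusted p = 0.033). Pes1 and Wdr12 were not called, at 0.16 ± 0.21 and -0.35 ± 0.20. Npm1 (nucleophosmin), the abundant nucleolar chaperone, was not called at -0.47 ± 0.26 (adjusted p = 0.2), and Nolc1 was not called at 0.03 ± 0.19 (adjusted p = 0.94). The other probe sets of Nolc1 gave -0.29 and -0.49, so its value depends on the probe set.

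**Figure D2:**
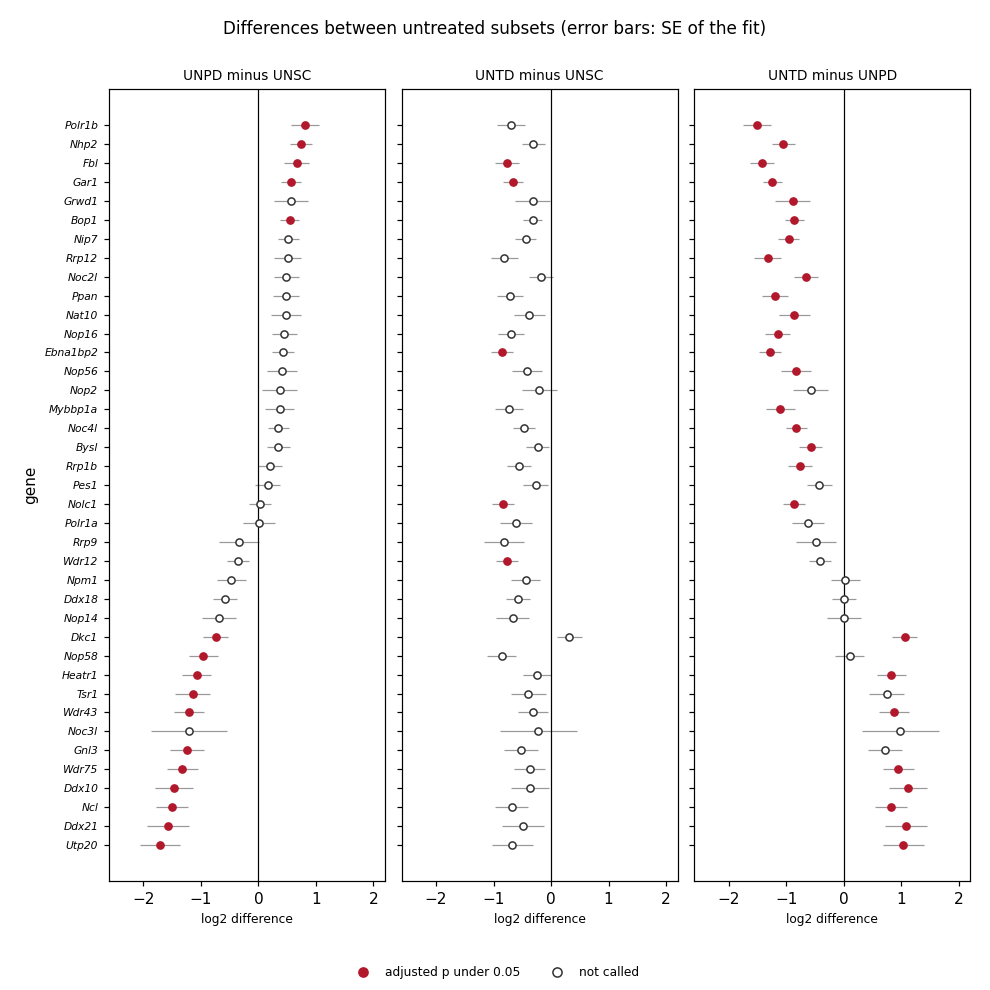
Log2 differences of the 39 members between the untreated subsets in 3 panels (UNPD minus UNSC, UNTD minus UNSC, UNTD minus UNPD), with horizontal bars giving the SE of the fit and filled red points marking members called at an adjusted p under 0.05. In the first panel 5 members are called above 0 and 11 below it, in the second 38 of 39 points lie below 0, and in the third 8 are called above 0 and 19 below.

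The arrays of UNPD and UNSC did not overlap for 37 members, 20 higher and 17 lower in UNPD, while all genes gave 41.4% and 27.6%. The overlapping ones were Nolc1 and Polr1a. Such separation was common in this comparison and adds little to the calls. Without UNPD replicate 1 no member was called in either direction, and without UNSC replicate 1, UNSC replicate 2 or UNPD replicate 2 the counts were 0, 0 and 1 higher and 6, 2 and 12 lower. With every array set to a common 75th percentile the counts became 19 higher and 9 lower and the median of all genes 0.60, and with that percentile as a covariate no member was called and 8 of the 11 lower members had a difference above 0.

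The members that fell in UNPD had longer genomic spans than the others. The median genomic span in RefSeq on GRCm38.p6 was 26.6 kb for the 11 lower members, 10.4 kb for the 5 higher members and 12.2 kb for the 23 not called. Across the 39 members the Spearman correlation of difference and span was -0.49, and across 14487 genes it was -0.26, as a description over genes of the same arrays. For UNTD minus UNSC, which does not use the UNPD arrays, the same correlation was 0.12 over the members and 0.03 over all genes. Of the other comparisons without those arrays, RATD minus RAPD gave 0.43 and 0.20, and RATD minus UNTD -0.15 and -0.01. For RAPD minus UNPD it was 0.47 and 0.20. A trend with span was thus not confined to comparisons that use the UNPD arrays. The summed linear signal of 8 mature neutrophil genes was 121731 to 126922 in UNSC and 161819 to 172789 in UNPD, with 4 called higher. The 9 proliferation genes gave 61658 to 65313 and 72399 to 74591, with 3 higher and 2 lower. UNPD also stands apart by its 75th percentile of signal, and the part of gene length, of that percentile and of these marker genes in the split was not tested.

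**Figure D3:**
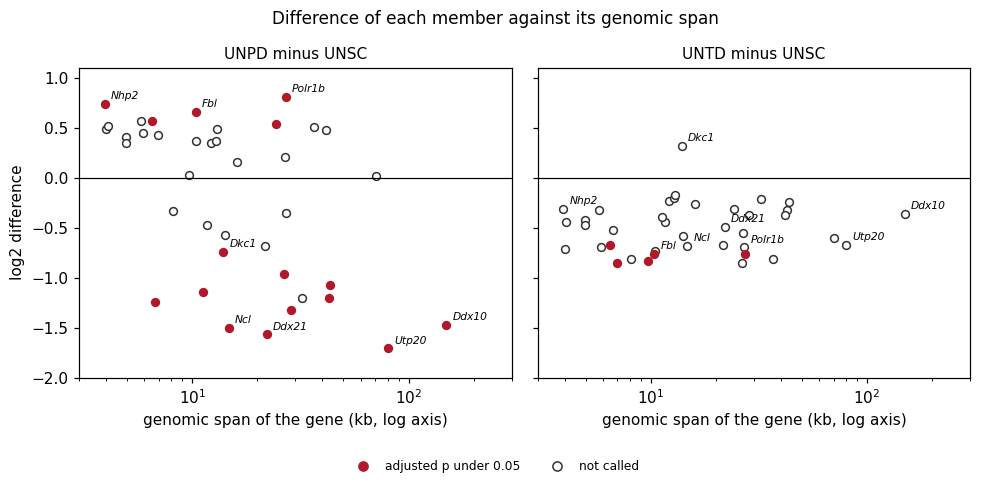
Log2 difference of each member against the genomic span of its gene in kilobases (log axis), for UNPD minus UNSC and for UNTD minus UNSC, with calls marked. Longer members tend to lie lower in the first panel (Spearman -0.49 over 39 members) and not in the second (0.12).

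The TD subset was then compared with the SC subset. Here nearly all members lay in 1 direction: 5 were called lower, none was called higher, and 38 of 39 had a difference below 0, against 52.8% of all genes. All genes were called lower in 3.2% and higher in 4.96% of cases. The median member difference was -0.49 on the log2 scale, while the median of all genes was -0.04. At an unadjusted p under 0.05, limma gave 18 members lower and 0 higher, beside 11% and 10.9% of all genes.

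Ebna1bp2, a large subunit assembly factor, had log2 signals of 11.87 and 11.92 in UNSC and 11.14 and 10.94 in UNTD, a difference of -0.85 ± 0.19 (adjusted p = 0.016). Its other 2 probe sets had the opposite sign, at 0.24 for one with a mean of 6.29 and 0.23 for one with a mean of 5.06, near the dim-signal level. Nolc1, the snoRNP chaperone that was not called between PD and SC, had 11.78 and 11.85 in UNSC and 11.02 and 10.93 in UNTD, a difference of -0.84 ± 0.19 (adjusted p = 0.019). Wdr12 had 11.03 and 10.94 against 10.40 and 10.04, a difference of -0.77 ± 0.20 (adjusted p = 0.034). Fbl had 13.39 and 13.22 against 12.70 and 12.39, a difference of -0.76 ± 0.21 (adjusted p = 0.048). Gar1 had 11.71 and 11.74 against 11.14 and 10.97, a difference of -0.67 ± 0.17 (adjusted p = 0.035). The called members therefore came from 4 of the 6 roles, with no call among the 13 small subunit factors or the 3 polymerase I factors.

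Other members lay in the same direction without passing the test. Nop58 differed by -0.86 ± 0.25 (adjusted p = 0.06) and Rrp12, a factor of small subunit export, by -0.81 ± 0.23 (adjusted p = 0.057). Polr1b differed by -0.70 ± 0.24 (adjusted p = 0.11), Ncl by -0.68 ± 0.28 (adjusted p = 0.18) and Polr1a by -0.61 ± 0.28 (adjusted p = 0.24). The other kept probe sets of Polr1a had the opposite sign, at 0.08 and 0.26. Npm1 had 14.39 and 14.46 in UNSC and 14.14 and 13.83 in UNTD, a difference of -0.44 ± 0.26 (adjusted p = 0.36), and Bop1 differed by -0.32 ± 0.17 (adjusted p = 0.3). The other kept probe set of Bop1, with a mean of 7.18, gave 0.29. Among the representing probe sets Dkc1 was the exception, with 14.07 and 14.16 in UNSC and 14.69 and 14.18 in UNTD, at 0.32 ± 0.21 (adjusted p = 0.44). The UNTD arrays lay below the UNSC arrays without overlap for 36 members, against 32.3% of all genes. Dkc1 was the single member whose UNTD arrays were both higher, and Nop2 and Noc3l overlapped.

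Markers of other cell states moved in this comparison too. The summed linear signal of 9 measured monocyte and macrophage genes was 3527 to 3682 in UNSC and 34786 to 41582 in UNTD, and 7 of the 9 were called higher. That of 6 promyelocyte genes was 117242 to 121322 in UNSC and 64547 to 89529 in UNTD, with 3 called lower. That of 9 proliferation genes was 61658 to 65313 in UNSC and 46084 to 48727 in UNTD, with 2 called lower and a median difference of -0.56. The 8 mature neutrophil genes all lay above 0, with 4 called higher and a median difference of 0.88. Their summed signal was 121731 to 126922 in UNSC and 116457 to 170707 in UNTD. The 3 measured B cell and 3 measured T and NK cell genes summed to 50 to 151 on every array. The part of these changes in the lower member signals was not tested, and in bulk RNA fewer cells of a type and less RNA per cell cannot be told apart.

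The direction of the set moved less than the calls over the alternatives, some of which could hardly move it. Leaving out a UNPD, RAPD or RATD array cannot change a difference between UNTD and UNSC, since the fit uses group means. The UNSC and UNTD arrays had 75th percentiles of 8.70 to 8.78, so a common percentile shifts that difference little. The number of members below 0 was 38 under quantile normalization and under a common 75th percentile, 35 with each gene's kept probe sets averaged, and 36 to 38 when each array was left out, while the number called lower was 0 without either UNSC array or either UNTD array and 22 when only these 2 groups entered the fit.

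**Figure D4:**
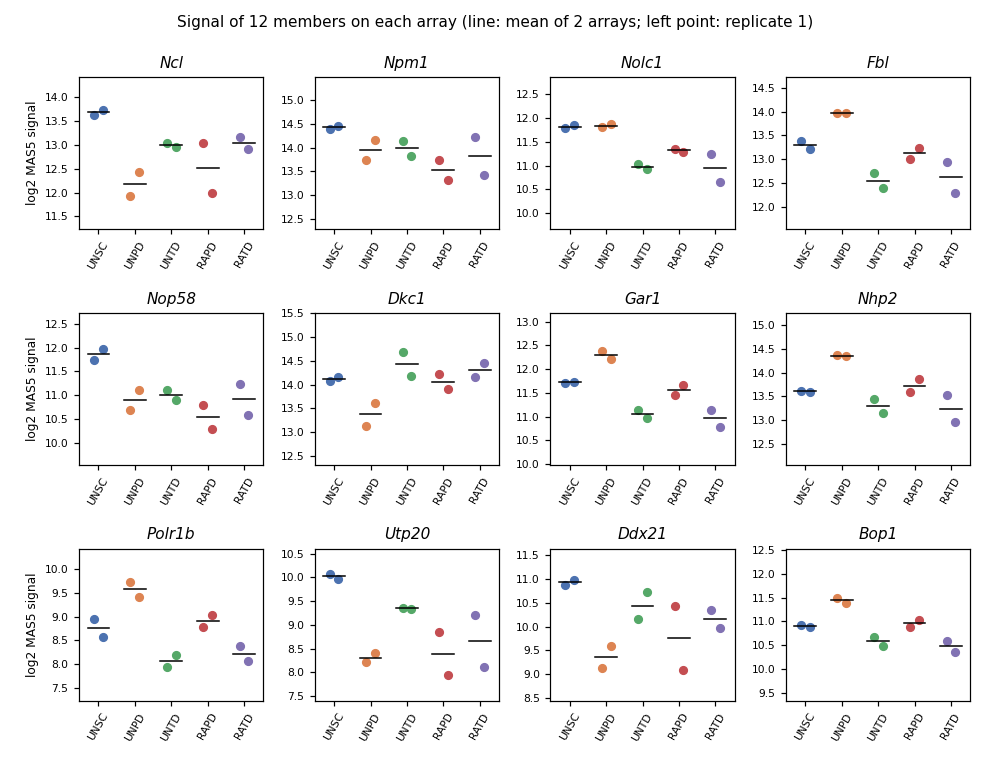
Log2 signal of 12 members on each array (dots, by group, with the group mean as a line): Ncl, Npm1, Nolc1, Fbl, Nop58, Dkc1, Gar1, Nhp2, Polr1b, Utp20, Ddx21 and Bop1. Fbl, Gar1, Nhp2, Polr1b and Bop1 peak in UNPD, whereas Ncl, Utp20, Ddx21 and Dkc1 have their lowest untreated level there.

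The TD and PD subsets were compared directly. In UNTD 19 members (48.7%) were lower and 8 (20.5%) higher than in UNPD, where all genes gave 17.2% lower and 18% higher. The share of higher members thus lies near that of all genes. The median member difference was -0.58 against -0.13 for all genes. This comparison uses the same UNPD arrays as the PD to SC comparison and is not independent of it. Of the 9 monocyte and macrophage genes 7 were higher in UNTD, with a median of 4.29 and a summed signal of 4811 to 5976 in UNPD and 34786 to 41582 in UNTD. Of the 6 promyelocyte genes 4 were lower, with a median of -1.14, and of the 9 proliferation genes 6 were lower and 1 higher. The part of these genes in the member differences was not tested.

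The members lower in UNTD were led by Polr1b, whose log2 signals were 9.73 and 9.41 in UNPD and 7.93 and 8.20 in UNTD, a difference of -1.50 ± 0.24 (adjusted p = 0.00077). Fbl differed by -1.42 ± 0.21 (adjusted p = 0.00049), Rrp12 by -1.32 ± 0.23 (adjusted p = 0.0012) and Ebna1bp2 by -1.28 ± 0.19 (adjusted p = 0.00046). Rrp12 had 9.12 and 9.05 in UNPD and 7.92 and 7.61 in UNTD, and Ebna1bp2 had 12.28 and 12.36 against 11.14 and 10.94. Gar1 fell by 1.24 (adjusted p = 0.00039) and Nhp2 by 1.05 (adjusted p = 0.0016), while Dkc1, of the same particle, was higher. Of the large subunit factors 8 of 14 were lower and none was higher. They included Ppan (-1.20 ± 0.23), Nop16 (-1.15 ± 0.22), Nip7 (-0.96 ± 0.18) and Bop1 (-0.86 ± 0.17, adjusted p = 0.002).

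The polymerase I cofactor Mybbp1a had 12.65 and 12.63 in UNPD and 11.87 and 11.21 in UNTD, a difference of -1.10 ± 0.25 (adjusted p = 0.0047). Nolc1 differed by -0.86 ± 0.19 (adjusted p = 0.0041). The catalytic subunit gene Polr1a was not called at -0.62 ± 0.28 (adjusted p = 0.11), and Npm1 was not called at 0.03 ± 0.26 (adjusted p = 0.94). The other kept probe sets of Polr1a gave -0.24 and 0.94. Nat10, which acetylates small subunit RNA, and Noc4l, an assembly partner of Nop14, fell by 0.86 and 0.82 on the log2 scale.

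Both arrays of UNTD lay below both of UNPD for 24 members and above for 11, while all genes gave 38.2% and 30.5%. The 8 members higher in UNTD (20.5%, beside 18% of all genes) were Ddx10, Ddx21, Dkc1, Utp20, Wdr75, Wdr43, Heatr1 and Ncl. Ddx10 had 10.39 and 10.30 in UNTD against 9.06 and 9.41 in UNPD, a difference of 1.11 ± 0.33 (adjusted p = 0.02). Ddx21 differed by 1.08 ± 0.37 (adjusted p = 0.038), Dkc1 by 1.06 ± 0.21 (adjusted p = 0.0026) and Utp20 by 1.04 ± 0.35 (adjusted p = 0.038). The second probe set of Ddx21 gave only 0.18. Ncl had 13.03 and 12.97 in UNTD, between the 11.92 and 12.44 of UNPD and the 13.63 and 13.74 of UNSC, and differed from UNPD by 0.82 ± 0.28 (adjusted p = 0.041). Their median genomic span was 35.7 kb, against 9.70 kb for the 19 members lower in UNTD.

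Among the other kept probe sets of called members in this comparison, 28 of 33 had the sign of the representing probe set, and the exceptions belonged to Bop1, Ebna1bp2, Ncl and Noc2l. These gave 0.16 for Bop1, 0.44 for Ebna1bp2, -0.25 and -0.14 for Ncl and 0.59 for Noc2l. The representing probe set of Noc2l was called lower by limma, at -0.66 ± 0.21 (adjusted p = 0.031). Left-out arrays gave 1 to 11 members higher and 11 to 20 lower, with 1 higher without UNPD replicate 1. A common 75th percentile gave 1 higher, and with the percentile as a covariate no member was called in either direction.

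The effect of ATRA was first measured in the PD subset. RAPD had 5 members lower than UNPD and none higher, while all genes gave 3.19% lower and 4.86% higher. The median member difference was -0.49 against -0.01 for all genes, and 28 of 39 members lay below 0, against 50.6% of all genes. At an unadjusted p under 0.05, limma gave 18 members lower and 1 higher, against 12.8% and 13.8% of all genes.

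Ppan, a large subunit factor, had log2 signals of 10.72 and 10.50 in UNPD and 9.71 and 9.78 in RAPD, a difference of -0.86 ± 0.23 (adjusted p = 0.043). Fbl had 13.97 and 13.96 against 13.00 and 13.24, a difference of -0.85 ± 0.21 (adjusted p = 0.035). Bysl, which acts late in small subunit assembly, had 10.34 and 10.46 against 9.64 and 9.58, a difference of -0.79 ± 0.20 (adjusted p = 0.037). Gar1 had 12.38 and 12.21 against 11.45 and 11.67, a difference of -0.73 ± 0.17 (adjusted p = 0.031), and Ebna1bp2 differed by -0.68 ± 0.19 (adjusted p = 0.047). The other probe sets of Ebna1bp2, with means of 6.29 and 5.06, gave 0.66 and -1.38. Its call was lost under quantile normalization, with array weights and with the replicate block, among other alternatives. In each of the 5 called members, both ATRA arrays lay below both untreated arrays. Among all members the RAPD arrays lay below the UNPD arrays without overlap for 25 and above them for 1, while all genes gave 28.5% and 24.8%. The mature neutrophil genes summed to 182684 to 238949 in RAPD with 3 of 8 called higher, and the 9 proliferation genes to 79191 to 84922 with 1 called higher, and their part in the member differences was not tested.

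Nop2 had the most negative difference of all members, -0.91 ± 0.30 (adjusted p = 0.082), and was not called. Polr1b differed by -0.66 ± 0.24 (adjusted p = 0.11), Nolc1 by -0.52 ± 0.19 (adjusted p = 0.1), Bop1 by -0.49 ± 0.17 (adjusted p = 0.089) and Polr1a by -0.49 ± 0.28 (adjusted p = 0.3). The other kept probe sets of Polr1a gave -0.96 and 0.09, and that of Bop1 gave 0.34. Npm1 differed by -0.43 ± 0.26 (adjusted p = 0.31). The 11 members lower in UNPD than in UNSC had a median of 0.19 here and none was called, in a comparison that uses the same UNPD arrays. Dkc1 had 13.14 and 13.61 in UNPD and 14.21 and 13.91 in RAPD, at 0.69 ± 0.21 (adjusted p = 0.067), and Ncl had 11.92 and 12.44 against 13.03 and 11.98, at 0.33 ± 0.28 (adjusted p = 0.51). The RAPD arrays of Ncl enclosed the higher UNPD array.

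The gap between RAPD replicate 1 and replicate 2 was largest for Noc3l at 7.99 and 5.17, Ddx21 at 10.43 and 9.10, Ddx10 at 10.00 and 8.75 and Ncl at 13.03 and 11.98. Replicate 2 carried the lower value in each of them and also had the lower 75th percentile of signal, and the part of that percentile was not tested. Without RAPD replicate 2 the calls were 4 higher (Dkc1, Ncl, Ddx10 and Ddx21) and 7 lower, without RAPD replicate 1 they were 0 higher and 1 lower, and without either UNPD, UNSC or UNTD array no member was called lower. Leaving out either RATD array, which is in neither group but enters the common spread, gave 16 lower, and a common 75th percentile gave 18 lower.

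In the TD subset ATRA changed no member past the threshold. Between RATD and UNTD, limma called 0 of 39 members in either direction, where all genes gave 0.288% in both directions together, and 0 members had an unadjusted p under 0.05, against 10.7% of all genes. The median member difference was -0.16, against -0.01 for all genes. Differences ran from -0.68 ± 0.35 for Utp20 (adjusted p = 0.54) to 0.38 ± 0.23 for Rrp12 (adjusted p = 0.63). The 8 mature neutrophil genes all lay above 0 in this comparison, with 2 called higher and a median difference of 1.21. Their part in the member values was not tested.

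The 13 small subunit factors had a median of -0.33, with 11 below 0. Among the 8 members described in every comparison, none of which is a small subunit factor, differences were smaller than their errors. Fbl differed by 0.07 ± 0.21, Ncl by 0.03 ± 0.28 and Nolc1 by -0.03 ± 0.19. Dkc1 differed by -0.12 ± 0.21, Npm1 by -0.16 ± 0.26 and Bop1 by -0.11 ± 0.17. Polr1a differed by -0.07 ± 0.28 and Polr1b by 0.15 ± 0.24, and the adjusted p of these 8 genes ran from 0.9 to 0.99. The other kept probe sets of Polr1a gave larger differences, of -1.08 and -0.57. The small mean differences of the representing probe sets hide unequal replicates. Npm1 had 14.23 and 13.42 in RATD, around the 14.14 and 13.83 of UNTD, and Nop56 had 11.68 and 10.74 in RATD beside 11.74 and 11.42 in UNTD.

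Grwd1, a histone-binding factor of large subunit assembly, had 9.51 and 8.35 in RATD and 9.46 and 9.35 in UNTD. The arrays of the groups did not overlap for 4 members, 1 higher and 3 lower, while all genes gave 19.9% and 20.3%. Without RATD replicate 1, 35 of 39 members lay below 0 with a median of -0.42, and Nop56, Nat10, Grwd1 and Noc2l were called lower. Without RATD replicate 2, 8 of 39 lay below 0 with a median of 0.10 and none was called. The direction of the set under ATRA in the TD subset therefore rests on which RATD array is used.

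**Figure D5:**
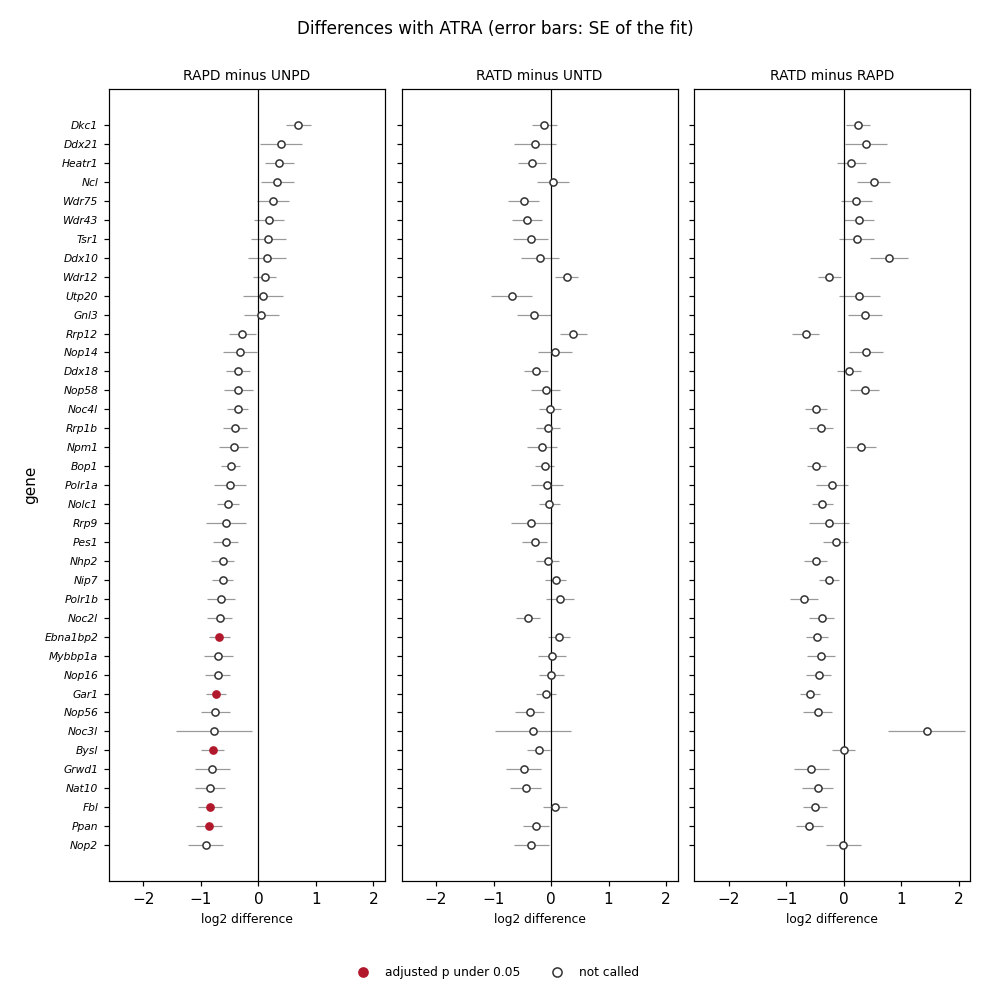
Log2 differences of the 39 members in 3 panels (RAPD minus UNPD, RATD minus UNTD, RATD minus RAPD), with horizontal bars giving the SE of the fit and filled red points marking calls at an adjusted p under 0.05. In the first panel 5 members are called, all below 0, and in the other panels no member is called.

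After ATRA the TD and PD subsets were compared with each other. Between RATD and RAPD, limma called 0 of 39 members, where all genes gave 4.78%, and 10 members had an unadjusted p under 0.05. Of these, 9 (23.1%) were lower and 1 (2.56%) higher in RATD, against 11.4% and 12.2% of all genes. The median member difference was -0.25 against -0.06 for all genes. Differences ran from -0.70 ± 0.24 for Polr1b (adjusted p = 0.11) to 1.44 ± 0.66 for Noc3l (adjusted p = 0.21). Polr1b had 8.79 and 9.04 in RAPD and 8.38 and 8.06 in RATD, and Gar1, the member nearest to the threshold, differed by -0.59 ± 0.17 (adjusted p = 0.072).

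Fbl differed by -0.50 ± 0.21 (adjusted p = 0.18), Bop1 by -0.48 ± 0.17 (adjusted p = 0.11) and Nolc1 by -0.37 ± 0.19 (adjusted p = 0.26). Ncl lay on the other side at 0.52 ± 0.28 (adjusted p = 0.29), as did Npm1 at 0.30 ± 0.26 (adjusted p = 0.51) and Dkc1 at 0.25 ± 0.21 (adjusted p = 0.52). Polr1a differed by -0.20 ± 0.28 (adjusted p = 0.72), and its other kept probe sets gave -0.36 and 0.28. The RATD arrays lay below the RAPD arrays without overlap for 13 members and above them for none, while all genes gave 26.1% and 21.8%. In the same comparison 7 of 9 monocyte and macrophage genes were called higher, 4 of 9 proliferation genes lower and 3 of 6 promyelocyte genes lower, and their part in the member values was not tested. Without RAPD replicate 1, Ncl, Ddx10, Ddx21 and Noc3l were called higher and Gar1 lower, and without RATD replicate 1, Fbl, Nop56 and Grwd1 were called lower.

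Whether ATRA acted differently in the subsets was tested as an interaction, the ATRA difference in TD minus that in PD. limma called 0 of 39 members, where all genes gave 0.24%, and 7 members had an unadjusted p under 0.05. Of these, 6 (15.4%) lay above 0 and 1 (2.56%) below, against 6.26% and 8.65% of all genes. The interaction was above 0 for 29 members, with a median of 0.36 against 0.02 for all genes. It ran from -0.81 ± 0.30 for Dkc1 (adjusted p = 0.26) to 0.92 ± 0.30 for Fbl (adjusted p = 0.23). The calls of 5 members in the PD subset and 0 in the TD subset thus do not show that the subsets respond differently. Ebna1bp2 was called above 0 and Ddx21 below 0 without RAPD replicate 2, and Fbl was called above 0 without RATD replicate 2.

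Further genes of ribosome assembly were taken from a list of 122 that holds no member, of which 119 were measured. In UNTD 9 (7.56%) were lower than in UNSC and none higher, beside 3.2% and 4.96% of all genes, 114 of 119 lay below 0, and the median was -0.38. At an unadjusted p under 0.05, 44 (37%) were lower and 0 higher, beside 11% and 10.9% of all genes. Ruvbl2, an ATPase of the complex that loads box C/D proteins, differed by -1.20 ± 0.27 (adjusted p = 0.018), and Znhit3, a partner in snoRNP assembly, by -0.99 ± 0.20 (adjusted p = 0.011). Ruvbl2 had log2 signals of 11.21 and 11.16 in UNSC, 11.62 and 11.58 in UNPD and 9.97 and 9.99 in UNTD.

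In UNPD 17 (14.3%) of the 119 genes were higher and 27 (22.7%) lower than in UNSC, with a median of 0.02, beside 10.6% and 15.2% of all genes. The AAA ATPase Mdn1, one of the largest assembly proteins, which removes factors from the large subunit precursor, differed by -2.16 ± 0.37 (adjusted p = 0.0022). Esf1 differed by -2.10 ± 0.34 (adjusted p = 0.0019), Exosc6, a subunit of the RNA exosome, by 2.86 ± 0.82 (adjusted p = 0.023) and Pelp1 by 0.87 ± 0.18 (adjusted p = 0.0049). Exosc6 was dim in UNSC, at 4.07 and 3.85, so its difference is uncertain. In UNTD 17 (14.3%) were higher and 47 (39.5%) lower than in UNPD, beside 18% and 17.2% of all genes.

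In RAPD 11 (9.24%) of the 119 were lower than in UNPD and none was higher, beside 3.19% and 4.86% of all genes, with a median of -0.38. At an unadjusted p under 0.05, 44 (37%) were lower and 0 higher, beside 12.8% and 13.8% of all genes. They included Ruvbl2 (-1.37 ± 0.27, adjusted p = 0.018) and Tcof1, the nucleolar cofactor of polymerase I transcription (-0.96 ± 0.24, adjusted p = 0.036). In the comparisons of RATD with UNTD and with RAPD, 0 of the 119 were called, with 0 in the first and 24 in the second at an unadjusted p under 0.05. Those 24 were 9 higher (7.56%) and 15 lower (12.6%), beside 12.2% and 11.4% of all genes. For the interaction 0 were called, and 24 (20.2%) lay above 0 and 0 below at an unadjusted p under 0.05, beside 6.26% and 8.65% of all genes.

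The Myc network, whose E-box appears in some member promoters, had 0 of 5 genes called by limma in each of the 6 comparisons between groups. At an unadjusted p under 0.05, Mxi1 passed in both comparisons of UNPD with an untreated subset and Mxd1 in both comparisons of an ATRA group with its untreated group. Myc had log2 signals of 12.03 and 12.05 in UNSC, 12.15 and 12.08 in UNPD, 12.01 and 11.56 in UNTD, 11.84 and 11.91 in RAPD and 11.81 and 11.25 in RATD. All its UNTD, RAPD and RATD arrays lay below its UNSC and UNPD arrays, by as little as 12.01 in UNTD against 12.03 in UNSC. For Myc, as for many members, RATD replicate 2 was the lowest array. Mycn stayed between 14.54 and 15.11 on all arrays. Mxd1, an antagonist of Myc at E-boxes that is known to rise in maturing granulocytes, had 9.83 and 11.05 in UNPD and 11.70 and 11.79 in RAPD, and 10.28 and 10.45 in UNTD and 11.08 and 12.32 in RATD. Both ATRA groups lay above their untreated groups without overlap for Mxd1, at 1.30 ± 0.39 in PD (adjusted p = 0.062) and 1.34 ± 0.39 in TD (adjusted p = 0.23), and neither passed the test. Max lay between 9.96 and 10.47 and Mxi1 between 11.79 and 12.47.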

How the data were processed

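Total RNA, extracted with Trizol and labelled as biotin cRNA per the labels' protocols, was measured on 10 single-colour arrays, 2 per group. The deposited log2 values were made by the authors with MAS5 per the submitters' processing notes, a version being not given in the sources used here. MAS5 scaling fixes 1 trimmed mean per array, so other percentiles can differ between arrays. Probe sets above the 40th percentile of an array on 2 or more arrays were kept (32686 of 45037, 72.6%). That percentile is the dim-signal level.

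All 10 arrays entered a limma fit (version 3.58.1, R 4.3.3; lmFit, eBayes with intensity trend) of 5 group means, whose degrees of freedom were 5 residual and 6.57 prior. Two-sided p-values received Benjamini-Hochberg adjustment over 14581 genes, and genes under 0.05 are named called. The number of arrays limits the precision. Values are log2 ± SE. The fit was also run on simulated data with independent noise for each gene. Those data lack the shifts between whole arrays described above, so they cannot test the fit under such shifts. The members, lists, tests and alternatives were chosen with earlier results of these data known. Named with full statistics were up to 4 called members per direction with the largest difference and 8 anchor genes. So were called members whose probe sets differ in sign, and up to 2 other ribosome biogenesis genes per direction. Alternatives covered scaling, filter, spread model, array weights, replicate block, probe set choice and each array left out.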

Additional observations from a re-analysis of the deposited data

How the results depend on the processing

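Counts below are of the 39 members at an adjusted p under 0.05 from limma. For UNPD minus UNSC, the 5 higher became 3 under quantile normalization, 19 under a common 75th percentile, 15 with only the groups compared, 11 with array weights and 0 without the eBayes trend, and the 11 lower became 4 without the trend. With the 75th percentile as a covariate both counts were 0. For UNTD minus UNSC, the 5 lower became 22 with only the groups compared, 17 with array weights, 2 with the replicate block and 0 without the trend. For UNTD minus UNPD, the 8 higher became 5 under quantile normalization, 1 under a common 75th percentile, 1 without the trend and 0 under the covariate, and the 19 lower became 12 with the mean of kept probe sets and 0 under the covariate. For RAPD minus UNPD, the 5 lower became 2 under quantile normalization (with 1 higher), 18 under a common 75th percentile, 3 with only the groups compared, 3 with array weights, 3 with the replicate block, and 0 without the trend and under the covariate. For RATD minus RAPD, 1 lower appeared under a common 75th percentile and 1 with the mean of kept probe sets. The F test gave 8 without the trend and 5 under the covariate in place of 30. The cause was not tested.

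With the 75th percentile as a covariate, which UNPD fills at its low end, differences changed sign without passing the test. For UNPD minus UNSC they became 0.13 for Nop58, 0.68 for Ncl, 0.13 for Utp20, 0.20 for Wdr75, 0.99 for Ddx10, 0.69 for Tsr1, 1.26 for Ddx21 and 0.40 for Gnl3. For UNTD minus UNPD they became -1.64 for Ncl, -1.03 for Utp20, -0.29 for Wdr43, -0.77 for Wdr75, -0.34 for Heatr1, -1.66 for Ddx10 and -2.11 for Ddx21. No other alternative changed the sign of a called member.

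With each array left out in turn, higher and lower counts ran from 0 to 8 and 0 to 12 for UNPD minus UNSC, 0 to 0 and 0 to 12 for UNTD minus UNSC, 1 to 11 and 11 to 20 for UNTD minus UNPD, 0 to 4 and 0 to 16 for RAPD minus UNPD, 0 to 0 and 0 to 4 for RATD minus UNTD, and 0 to 4 and 0 to 3 for RATD minus RAPD. The interaction gave 0 to 1 in each direction and the F test 12 to 37. Where an array left a group with 1 array, that array was assumed to vary like the other groups. The labels do not name the animals, so whether replicate numbers pair the samples is not known, and the main fit assumed no pairing. Over all genes, the deviations of same-numbered arrays correlated between -0.09 and 0.02 over the 10 pairs of groups. Over the members alone they correlated between -0.44 (UNPD and RAPD) and 0.34 (UNSC and UNPD).

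With 2 arrays a group, a difference that missed the threshold is not shown to be absent.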

Other observations

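Outside the members, the genes whose log2 signal followed the mean of the members most closely over the 10 arrays were Oosp1 (Pearson r = 0.962), Naf1 (0.960), Lyar (0.959), Slc16a1 (0.956) and Nudcd2 (0.949), among 6296 genes whose mean over the arrays reached log2 9. Naf1, an assembly factor of box H/ACA snoRNPs, and Lyar, a nucleolar protein, belong to the list of other ribosome biogenesis genes. These correlations run over arrays that share their groups and carry no test. Within the members, Rrp9 followed the mean most closely (0.944) and Dkc1 least (-0.367). Naf1 had log2 signals of 11.35 and 11.39 in UNSC, 11.20 and 10.99 in UNPD, 10.91 and 10.81 in UNTD, 10.81 and 10.53 in RAPD and 10.95 and 10.27 in RATD.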
